A study of Homo sapiens with 18 samples.

Results

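The genes described here encode the nuclear subunits of the mitochondrial respiratory chain and ATP synthase. They were taken from the gene count matrix by symbol: NDUFA, NDUFB, NDUFC, NDUFS and NDUFV genes, SDHA to SDHD, CYC1, and UQCR, COX4I, COX5, COX6, COX7, COX8 and ATP5 genes, without NDUFAF assembly factors and without 175 pseudogene symbols. This gave 97 of 62754 genes. Of these, 89 are subunit genes (37 for complex I, 4 for complex II, 10 for complex III, 19 for complex IV and 19 for complex V), 6 are antisense or divergent transcripts and 2 are readthrough genes. The cells were EA.hy926, a human endothelial line made by fusing an umbilical vein endothelial cell with a cell of the A549 lung carcinoma line. They received transfection reagent alone (Mock), 10 nM non-targeting siRNA (siNT) or 10 nM of a pool of 3 siRNAs against ELMO1 (siELMO1), an adaptor protein of the RAC1 pathway. At 48 h after transfection they were collected (0 h), or first kept for 24 h with 1 µg/ml poly(I:C), a double-stranded RNA mimic that activates Toll-like receptor 3. RNA-seq was done on 3 libraries for each of these 6 conditions, 18 in all. The model is limited to 1 fusion line and a transient knockdown, and both siRNA groups carried double-stranded RNA that the Mock group did not.

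The respiratory chain sits in the inner mitochondrial membrane. Complexes I (NADH dehydrogenase) and II (succinate dehydrogenase) pass electrons to coenzyme Q, complex III passes them on to cytochrome c, and complex IV (cytochrome c oxidase) passes them to oxygen. Complexes I, III and IV pump protons, and complex V (ATP synthase) uses the proton gradient to make ATP. Each complex except complex II also holds subunits encoded by mitochondrial DNA, so its assembly draws on both genomes. Endothelial cells make much of their ATP by glycolysis, and their mitochondria are also known for signalling.

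Many nuclear subunit promoters are known to carry sites for NRF1, for GABP (NRF2), for YY1 and for the estrogen-related receptor ESRRA. RefSeq promoters (GRCh38.p14; 250 bases before to 50 after the start) were matched by symbol to 70 of the 89 subunit genes and searched on both strands for NRF1 (GCGCATGC), GABP (CCGGAAG), YY1 (AAGATGGC) and ESRRA (TCAAGGTCA). NRF1 letters were found in 18.6% of these promoters, against 5.59% of the 10689 promoters of genes tested here and 3.27% of all 27305 promoters. GABP letters were in 28.6%, against 19.1% and 10.7%. YY1 letters were in 15.7%, against 5.43% and 3.03%. ESRRA letters were in 1 subunit promoter alone, that of SDHD (1.43%, against 0.159% and 0.359%). At least 1 of the 4 was present in 48.6% of the subunit promoters, in 27.2% of those of the genes tested and in 15.9% of all. The median GC content was 61.2%, 65% and 58.3%. The promoters printed here held the most different motifs of each complex, with ties (such as NDUFS7 with NDUFA6, COX6A1 with COX5B, and UQCRH with UQCR11) settled by the size of the change in siNT against Mock at 0 h, and a pair is shown for complex II because SDHB and SDHD moved in opposite directions in the data. Capitals mark the motif letters on either strand, each sequence runs 5′ to 3′ on the strand of its gene, and positions are counted from the start site. SDHB (chr1:17053983-17054282, minus strand) has NRF1 letters from -200, GABP letters from -128 and YY1 letters from 10. SDHD (chr11:112086623-112086922, plus strand) has a pair of overlapping NRF1 matches from -110 and -108, GABP letters from -77 and ESRRA letters from 11. NDUFA6 (chr22:42090723-42091022, minus strand), UQCR11 (chr19:1605413-1605712, minus strand), COX5B (chr2:97645812-97646111, plus strand) and ATP5PF (chr21:25735005-25735304, minus strand) follow. A match is a description of letters and not a site of binding.
SDHB: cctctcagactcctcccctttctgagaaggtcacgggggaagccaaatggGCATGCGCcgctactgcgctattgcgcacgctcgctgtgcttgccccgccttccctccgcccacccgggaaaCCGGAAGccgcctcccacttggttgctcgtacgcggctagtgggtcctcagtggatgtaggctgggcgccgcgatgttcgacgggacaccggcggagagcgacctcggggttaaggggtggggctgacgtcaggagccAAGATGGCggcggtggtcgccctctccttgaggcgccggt
SDHD: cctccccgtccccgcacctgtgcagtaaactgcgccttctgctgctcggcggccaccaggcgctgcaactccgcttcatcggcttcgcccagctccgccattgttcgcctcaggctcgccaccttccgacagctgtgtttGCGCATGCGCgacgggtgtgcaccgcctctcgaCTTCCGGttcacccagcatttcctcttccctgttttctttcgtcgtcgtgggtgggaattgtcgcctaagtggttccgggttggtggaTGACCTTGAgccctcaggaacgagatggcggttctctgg
NDUFA6: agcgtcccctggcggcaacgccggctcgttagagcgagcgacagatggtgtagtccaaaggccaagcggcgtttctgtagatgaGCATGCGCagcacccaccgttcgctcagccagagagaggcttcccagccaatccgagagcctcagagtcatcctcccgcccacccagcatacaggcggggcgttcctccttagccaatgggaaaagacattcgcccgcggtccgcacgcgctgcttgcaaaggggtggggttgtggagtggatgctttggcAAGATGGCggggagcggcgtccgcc
UQCR11: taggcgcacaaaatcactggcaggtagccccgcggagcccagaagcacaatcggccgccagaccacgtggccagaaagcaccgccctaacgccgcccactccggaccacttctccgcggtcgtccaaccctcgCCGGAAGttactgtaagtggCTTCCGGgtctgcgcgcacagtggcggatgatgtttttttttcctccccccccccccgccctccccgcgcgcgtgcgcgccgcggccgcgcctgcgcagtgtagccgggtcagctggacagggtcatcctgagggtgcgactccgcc
COX5B: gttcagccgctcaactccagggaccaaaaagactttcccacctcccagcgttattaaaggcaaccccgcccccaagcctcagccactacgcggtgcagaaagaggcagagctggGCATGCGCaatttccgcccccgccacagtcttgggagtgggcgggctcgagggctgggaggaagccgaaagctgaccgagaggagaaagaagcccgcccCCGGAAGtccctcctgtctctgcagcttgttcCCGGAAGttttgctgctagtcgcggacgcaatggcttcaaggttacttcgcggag
ATP5PF: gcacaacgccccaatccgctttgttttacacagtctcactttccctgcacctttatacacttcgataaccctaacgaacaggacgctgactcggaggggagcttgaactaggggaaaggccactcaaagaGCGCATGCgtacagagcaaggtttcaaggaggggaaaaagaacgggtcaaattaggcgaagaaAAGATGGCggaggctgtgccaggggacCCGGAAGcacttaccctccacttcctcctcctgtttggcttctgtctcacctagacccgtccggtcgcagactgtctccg

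ELMO1, the gene targeted, was at 2.98 to 3.04 CPM (counts scaled to library size by TMM factors) in Mock, 2.66 to 3.32 in siNT and 0.299 to 0.419 in siELMO1 at 0 h. At 24 h it was at 1.52 to 2.98, 2.98 to 3.58 and 0.155 to 0.359 CPM. The siELMO1 libraries lay below all others at both times (log2 -3.11 against siNT at 0 h, adjusted p = 2.74e-08, edgeR). The libraries held 40374756 to 73850946 estimated counts, so that 3 counts, the limit that a count of 0 allows, correspond to 0.0406 to 0.0743 CPM. Of the endothelial markers CDH5 (353 CPM in Mock at 0 h) and ENG (904 CPM) were high, VWF (5.59 CPM) was low and CLDN5 (0.104 CPM) was near 0. The epithelial keratins KRT7 (753 CPM) and KRT18 (459 CPM) were high too, and PTPRC, CD3E, DCN and CDH1 were at 0. One library, siELMO1 at 0 h replicate 1, stood apart from its group. In it the subunit genes held 0.624% of all counts and the subunits encoded by mitochondrial DNA 1.27%, against 0.544% and 0.527%, and 2.97% and 2.99%, in replicates 2 and 3. Replicates 2 and 3 in turn had the highest mitochondrially encoded shares of all libraries, the next being 1.82% in siNT at 24 h replicate 3. They also held the fewest counts, 40374756 and 50984532. It cannot be told which of these libraries is the more typical of siELMO1. Results that rest on replicate 1 are given also without it, and such refits rest on replicates 2 and 3. The study calls the libraries of a group biological replicates, and neither it nor the labels say whether they came from separate cultures, so the p-values measure the spread between these libraries. In such bulk samples a lower level in every cell and fewer cells with a high level cannot be told apart.

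Expression covered nearly the whole machinery. After the filter on low counts, 85 of the 97 genes were tested, among them 82 of the 89 subunit genes: all of complexes I, II and III, 13 of 19 for complex IV and 18 of 19 for complex V. Levels per length are given as TPM, the mean of 18 libraries. TPM are counts per kilobase of transcript, rescaled to the same total in every library. The median level was 106 for complex I, 144 for complex II, 115 for complex III, 213 for complex IV and 187 for complex V. ATP5F1B, the catalytic beta subunit of ATP synthase, was highest at 1030, and NDUFA4L2 was lowest among the subunit genes tested at 1.89. These levels depend on the transcript lengths used, most of all for UQCRB, at 154 here and 27.8 with the length of its leading transcript.

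Where complex IV has alternative forms, the ubiquitous form was the one expressed. COX4I1 was at 486 TPM, while COX4I2, the form linked to low oxygen, had no count in any library. COX6A1 (366) and COX6B1 (302) were high, while COX6A2, the heart and muscle form, had no count and COX6B2, the testis form, did not exceed 0.239 CPM in any library. COX8A was at 262 and COX8C had no count. COX7A2 (237), COX7A2L (88.2), which helps to join complexes into supercomplexes, and COX7B (79.2) were expressed, while the muscle form COX7A1 stayed at or below 0.14 CPM and COX7B2 at or below 0.0816 CPM. NDUFA4, now counted as a complex IV subunit, was at 69.5, against 1.89 for its relative NDUFA4L2. C15orf48, a further relative known to be induced in inflammation, had no count in any 0 h library and reached at most 0.742 CPM at 24 h. The c-ring subunit of ATP synthase comes from 3 genes that encode the same mature protein. Of these genes, ATP5MC2 was at 441, ATP5MC3 at 99.1 and ATP5MC1 at 96 TPM. UQCRH was at 307 and its near-identical copy UQCRHL at 17.5, and since reads of such copies can be assigned to either, values of UQCRHL are uncertain.

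The question of the first comparison was what transfection with a non-targeting siRNA did by itself. In siNT cells at 0 h, subunit genes of complexes I, III, IV and V were mostly higher than in Mock cells. Of the 85 genes tested, 51 (60%) were higher and 7 (8.24%) were lower by edgeR at an adjusted p under 0.05, against 27.6% higher and 24.0% lower of all 15167 genes tested. The changes were small: the median log2 fold change was 0.22, against 0.03 over all genes. Higher and lower were 21 and 3 of 37 in complex I, 7 and 0 of 10 in complex III, 12 and 0 of 13 in complex IV and 10 and 2 of 18 in complex V, and in complex II they were 1 and 2 of 4. Median log2 fold changes were 0.21 for complex I, -0.16 for complex II, 0.30 for complex III, 0.28 for complex IV and 0.21 for complex V. Without Mock at 0 h replicate 2, 34 genes were higher.

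**Figure D1:**
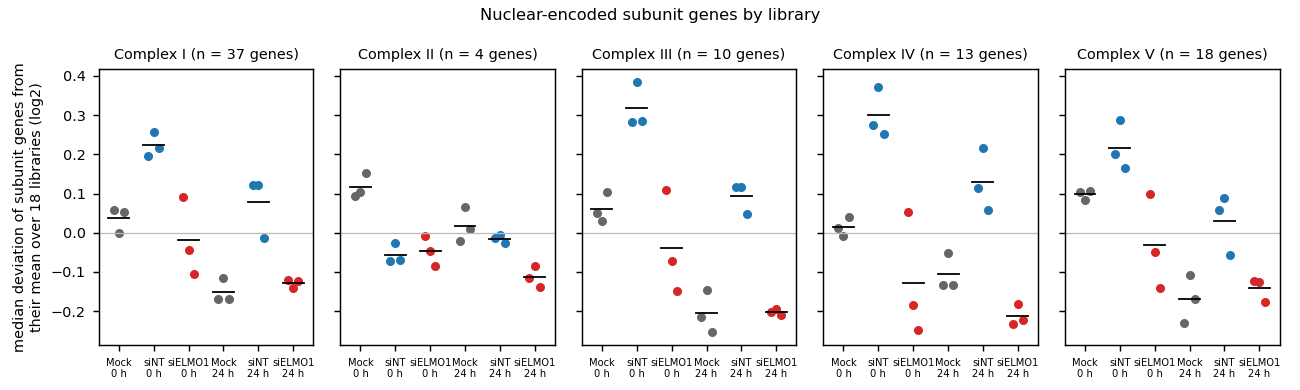
Median deviation of the tested subunit genes of each complex from their mean over 18 libraries (y axis, log2), 1 point per library and a bar at the mean of 3 libraries, for Mock (grey), siNT (blue) and siELMO1 (red) at 0 h and 24 h. In complexes I, III, IV and V the 3 siNT 0 h libraries lie above every other library, and in complex II they lie below the 3 Mock 0 h libraries.

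In siELMO1 cells at 0 h the same machinery was mostly lower than in siNT cells. Here 52 genes (61.2%) were lower and 8 (9.41%) higher, against 31.3% lower and 31.3% higher of all genes tested, with a median log2 fold change of -0.29. Lower and higher were 21 and 4 of 37 in complex I, 1 and 2 of 4 in complex II, 8 and 0 of 10 in complex III, 11 and 0 of 13 in complex IV and 11 and 2 of 18 in complex V. This comparison shares the siNT libraries with the one above, so its values are not an independent second observation of the same genes. Against Mock, siELMO1 at 0 h had 18 genes (21.2%) lower and 7 (8.24%) higher, beside 22.4% lower and 27.9% higher of all genes, with a median of -0.08, so that the share of genes that were lower was near that of all genes. Without siELMO1 at 0 h replicate 1, 37 genes were lower and 10 higher than in Mock (median -0.13), beside 3630 and 4348 of 15154 genes in all. Without that library 56 genes were lower and 6 higher than in siNT.

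**Figure D2:**
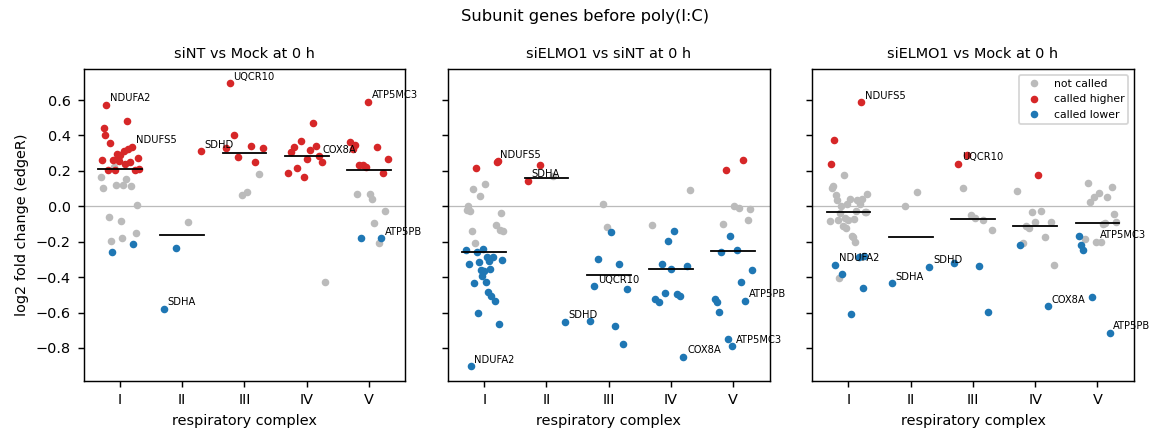
Log2 fold change (y axis, edgeR) of each tested subunit gene at 0 h, by complex (x axis), for siNT against Mock, siELMO1 against siNT and siELMO1 against Mock. Points are genes, red where higher and blue where lower at an adjusted p under 0.05, and bars are medians. Most points lie above 0 in the left panel and below 0 in the middle panel, with SDHA (-0.58 and 0.15) among the exceptions, and 1 gene that is not reported here is not drawn.

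The 7 core subunits of complex I together hold its flavin and iron-sulfur clusters, and not all of them moved with the complex. At 0 h, 4 were higher and 1 lower in siNT than in Mock, and 2 did not pass the test. In siELMO1 against siNT, 4 were lower and 1 higher, and 2 did not pass. In siNT against Mock at 0 h, NDUFS1 (log2 0.33), NDUFV2 (0.27), NDUFS3 (0.25) and NDUFS7 (0.21) were higher. In siELMO1 against siNT, NDUFS7 (-0.67), NDUFS3 (-0.54), NDUFV2 (-0.30) and NDUFS1 (-0.29) were lower.

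Of the 30 accessory subunits of complex I, 17 were higher and 2 lower in siNT than in Mock, and 17 were lower and 3 higher in siELMO1 than in siNT. NDUFA2, a small subunit near the NADH-oxidising end, was at 22.5, 22.1 and 23.6 CPM in Mock, 33.2, 35.1 and 33.3 CPM with siNT and 22.7, 15.9 and 15.5 CPM in siELMO1. It was higher in siNT than in Mock (log2 0.57 ± 0.116, SE, adjusted p = 0.000488, edgeR) and lower in siELMO1 than in siNT (log2 -0.90 ± 0.118, adjusted p = 2.93e-06), while siELMO1 replicate 1 lay among the Mock libraries. NDUFS5, an accessory subunit of the membrane arm, was instead highest in siELMO1. It was at 64.8 to 69.5 CPM in Mock, 79.9 to 89.1 CPM in siNT and 89.3 to 108 CPM in siELMO1, with no overlap between groups, and it was higher in siELMO1 than in Mock by 0.59 ± 0.0695 on the log2 scale (adjusted p = 1.56e-06, edgeR). NDUFAB1, the mitochondrial acyl carrier protein that also serves fatty acid synthesis, was lower in siELMO1 than in siNT (log2 -0.60) and than in Mock (log2 -0.38). Both NDUFA6, whose promoter is printed above, and NDUFA12 rose in siNT (log2 0.36 and 0.44) and were lower in siELMO1 than in siNT (log2 -0.43 and -0.33).

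The 4 genes of complex II, the only complex with no mitochondrially encoded subunit, did not move together. SDHA (chr5:218303-257082, GRCh38, plus strand), the flavoprotein that oxidises succinate, was at 191, 189 and 206 CPM in Mock, 122, 134 and 136 CPM with siNT and 142, 146 and 146 CPM in siELMO1 at 0 h. Every siRNA-transfected library was below every Mock library, with log2 fold changes of -0.58 ± 0.0514 in siNT (adjusted p = 5.03e-08, edgeR) and -0.44 ± 0.0514 in siELMO1 (adjusted p = 1.5e-06, edgeR). SDHB, the iron-sulfur subunit, was at 59.9, 61.8 and 62.8 CPM in Mock, 52.1, 51.5 and 53.4 CPM with siNT and 57.5, 62.9 and 64.1 CPM in siELMO1. It was lower in siNT alone of the 3 groups, by 0.23 on the log2 scale against either of the others. SDHD, a membrane anchor, went the other way: it was at 102, 99.9 and 103 CPM in Mock, 125, 131 and 122 CPM with siNT and 92.3, 73.9 and 74 CPM in siELMO1. It was higher in siNT than in Mock (log2 0.31, adjusted p = 0.00146, edgeR) and lower in siELMO1 than in siNT (log2 -0.65, adjusted p = 3.86e-07, edgeR) and in Mock (log2 -0.34). SDHC, the second anchor, did not pass the test in any of the 12 comparisons. SDHB and SDHD differed in direction in both siNT comparisons at 0 h, and for that reason both promoters are printed above. A relation of promoter letters to these changes was not tested. At 24 h both were lower in siELMO1 than in siNT (log2 -0.27 for SDHD and -0.16 for SDHB). That call of SDHB (adjusted p = 0.0392, edgeR) was lost without any of 4 libraries in turn and under 4 of 9 other settings (adjusted p up to 0.149). The exons of SDHA and SDHD share 1887 and 319 bases with genes annotated on the same strand, and reads there may be assigned to either gene.

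**Figure D3:**
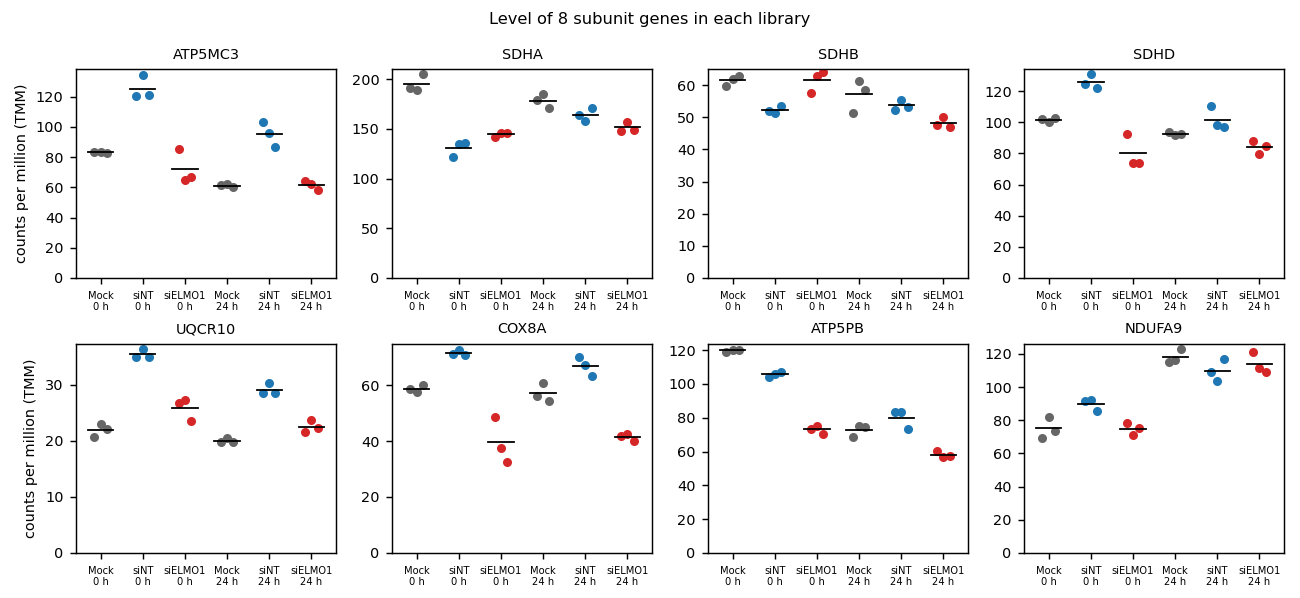
Level of ATP5MC3, SDHA, SDHB, SDHD, UQCR10, COX8A, ATP5PB and NDUFA9 (y axes, TMM-normalised CPM, from 0) in each of 18 libraries, with a bar at the mean of each group of 3. In siNT at 0 h ATP5MC3 and UQCR10 lie above every library of the other 5 groups, and in siELMO1 COX8A lies below every library of the other treatments at both times.

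In complex III, 5 of 6 small subunits and both electron carriers were higher in siNT than in Mock, and the core proteins UQCRC1 and UQCRC2 did not pass the test (log2 0.07 and 0.08). In siELMO1 against siNT, UQCRC2 was lower (log2 -0.15) and UQCRC1 did not pass (log2 -0.12). UQCR10 (chr22:29767369-29770413, plus strand), a small subunit next to cytochrome c1, was at 20.6, 23.1 and 22.1 CPM in Mock, 35, 36.4 and 35 CPM with siNT and 26.8, 27.3 and 23.6 CPM in siELMO1. The groups did not overlap, and it had the largest rise of the 85 genes in siNT against Mock (log2 0.69 ± 0.0615, adjusted p = 5.13e-08, edgeR). CYC1, cytochrome c1 itself, was at 95.7 to 99.9 CPM in Mock, 119 to 127 CPM in siNT and 75.2 to 83.1 CPM in siELMO1, again without overlap. Its log2 fold change was 0.33 in siNT against Mock and -0.65 in siELMO1 against siNT. UQCRFS1, the Rieske iron-sulfur protein, shifted by 0.34 and -0.68 in the same comparisons. UQCR11 shifted by 0.40 and -0.30, and UQCRH by 0.25 and -0.33.

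In complex IV, 12 of 13 genes were higher in siNT than in Mock, all but the scarcely expressed NDUFA4L2 (log2 -0.42, adjusted p = 0.402, edgeR). COX8A (chr11:63974620-63976543, plus strand), the smallest subunit, was at 58.7, 57.6 and 60.2 CPM in Mock, 71.3, 72.6 and 70.7 CPM with siNT and 48.6, 37.6 and 32.7 CPM in siELMO1. It was lower in siELMO1 than in siNT by 0.85 ± 0.0959 on the log2 scale and than in Mock by 0.57 ± 0.0957 (adjusted p = 4.97e-07 and 8.68e-05, edgeR). The 3 siELMO1 libraries were spread, with replicate 1 highest, and all lay below the other groups. The exons of COX8A share 175 bases with a gene annotated on the same strand, and reads there may be assigned to either gene. COX5B, with its printed GABP pair, shifted by 0.33 in siNT against Mock and by -0.54 in siELMO1 against siNT on the log2 scale. COX6B1, COX7B and COX7A2 shifted by 0.37, 0.47 and 0.27, and then by -0.49, -0.50 and -0.36. The call of COX7A2 in siNT against Mock was lost without Mock replicate 2 or 3 (adjusted p up to 0.0858, edgeR), and that of COX4I1 (log2 0.19) without Mock replicate 2 (adjusted p = 0.0644, edgeR).

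In ATP synthase, 4 of 5 genes of the catalytic F1 head, 3 of 3 of the c ring and 1 of 5 of the small membrane subunits were higher in siNT than in Mock, and the difference between these groups was not tested. Of the F1 genes, ATP5F1A (log2 0.36), ATP5F1B (0.32), ATP5F1C (0.35) and ATP5F1E (0.23) were higher in siNT than in Mock, and ATP5F1D (0.07) did not pass the test. ATP5F1A, the alpha subunit, was at 282, 293 and 291 CPM in Mock, 371, 369 and 371 CPM with siNT and 283, 247 and 242 CPM in siELMO1, so that siNT lay above both. In siELMO1 against siNT the log2 fold changes of ATP5F1A, ATP5F1B and ATP5F1C were -0.53, -0.54 and -0.59. Among the c-ring genes, ATP5MC3 was at 83.5, 83.3 and 83.0 CPM in Mock, 121, 134 and 121 CPM with siNT and 85.4, 65.0 and 66.7 CPM in siELMO1, which gave log2 fold changes of 0.59 and -0.79. ATP5MC1 was lower in siELMO1 than in siNT (log2 -0.75) and than in Mock (log2 -0.51), and ATP5MC2, the most abundant, shifted by 0.22 in siNT against Mock and by -0.17 in siELMO1 against siNT.

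ATP5PB (chr1:111448864-111462773, plus strand), a peripheral stalk subunit, was the member lowest in siELMO1 against Mock. It was at 119, 120 and 120 CPM in Mock, 104, 106 and 107 CPM with siNT and 73.6, 75.2 and 70.3 CPM in siELMO1. The 3 groups were separate, and the difference from Mock was -0.71 ± 0.053 on the log2 scale (adjusted p = 3.94e-09, edgeR). ATP5IF1, the inhibitor that blocks the reverse, ATP-consuming reaction of the enzyme, was at 28.9 to 29.9 CPM in Mock, 24.6 to 28.0 CPM in siNT and 29.2 to 31.3 CPM in siELMO1. It was higher in siELMO1 than in siNT by 0.20 on the log2 scale (adjusted p = 0.00476, edgeR). ATP5PF, another stalk subunit whose promoter is printed above, did not pass the test in any comparison between treatments.

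At 24 h after poly(I:C), subunit genes were again mostly higher in siNT than in Mock and mostly lower in siELMO1 than in siNT. The study reports widespread cell death in siNT by this time, much less in Mock, and protection from it in siELMO1. It also reports fewer cells and, at 48 h after transfection, a G1/S arrest in siELMO1. The part of cell death and of the arrest in the levels given here was not tested. In siNT against Mock 45 genes (52.9%) were higher and 3 (3.53%) lower, beside 25.2% and 24.9% of all genes tested, and the median was 0.23 on the log2 scale. For siELMO1 against siNT, 47 (55.3%) were lower and 4 (4.71%) higher, beside 26.5% and 26.0%, with a median of -0.21. The count of higher genes was 2 without siNT replicate 3 or without siELMO1 replicate 1. In siELMO1 against Mock 13 (15.3%) were lower and 6 (7.06%) higher, beside 22.0% and 21.6% of all genes, with a median of -0.03, and both shares were below those of all genes. That count of lower genes was 8 without Mock replicate 2 or without siELMO1 replicate 3, and 3 genes were higher without Mock replicate 1.

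COX8A again separated siELMO1 from the rest at 24 h, at 56.2, 60.9 and 54.4 CPM in Mock, 70.1, 67.3 and 63.4 CPM with siNT and 41.7, 42.7 and 39.9 CPM in siELMO1. Its log2 fold change was -0.69 against siNT (adjusted p = 1.1e-05, edgeR) and -0.46 against Mock (adjusted p = 0.000725, edgeR). ATP5MC3 (-0.63), NDUFA12 (-0.59), ATP5MC1 (-0.55) and CYC1 (-0.54) were also lower in siELMO1 than in siNT. ATP5IF1 was at 25.2 to 26.2 CPM in Mock, 22.2 to 24.7 CPM in siNT and 29.9 to 30.9 CPM in siELMO1, and was higher in siELMO1 than in siNT (log2 0.39, adjusted p = 1.93e-05, edgeR) and than in Mock (log2 0.25, adjusted p = 0.00165, edgeR). In siNT against Mock it was 0.14 lower on the log2 scale with an adjusted p of 0.0487, which became 0.0501 with the replicate block, and the call was lost without any of 10 libraries in turn (adjusted p up to 0.179, edgeR). NDUFA4L2, known as a hypoxia-induced relative of NDUFA4, was at 1.16 to 1.44 CPM in the Mock libraries and 0.515 to 0.714 CPM in siELMO1 at 24 h. The difference, -1.03 on the log2 scale, was the only one over 2-fold among the 85 genes at 24 h, at an adjusted p of 0.0487 (edgeR). That call was lost without any of 11 libraries in turn (adjusted p up to 0.14).

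Poly(I:C) was followed by lower levels of many subunit genes in Mock and siNT, and in siELMO1 the fall depended in part on siELMO1 at 0 h replicate 1. From 0 h to 24 h, 45 genes (52.9%) fell and 3 (3.53%) rose in Mock, beside 29.6% and 30.7% of all genes tested, with a median log2 fold change of -0.18. In siNT 38 (44.7%) fell and 4 (4.71%) rose, beside 25.2% and 28.6%, with a median of -0.16. In siELMO1 33 (38.8%) fell and 3 (3.53%) rose, beside 26.9% and 28.0%, with a median of -0.10. Without siELMO1 at 0 h replicate 1, 27 fell and 12 rose in siELMO1, beside 4113 and 4395 of 15154 genes in all, with a median of -0.03. The share that fell was then nearer to that of all genes. The genes that fell in Mock were 21 of 37 in complex I, 1 of 4 in complex II, 6 of 10 in complex III, 4 of 13 in complex IV and 13 of 18 in complex V. In siNT they were 15, 1, 7, 6 and 9, and in siELMO1 13, 1, 5, 4 and 10. The time point also adds 24 h of culture, so poly(I:C) and time cannot be told apart.

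**Figure D4:**
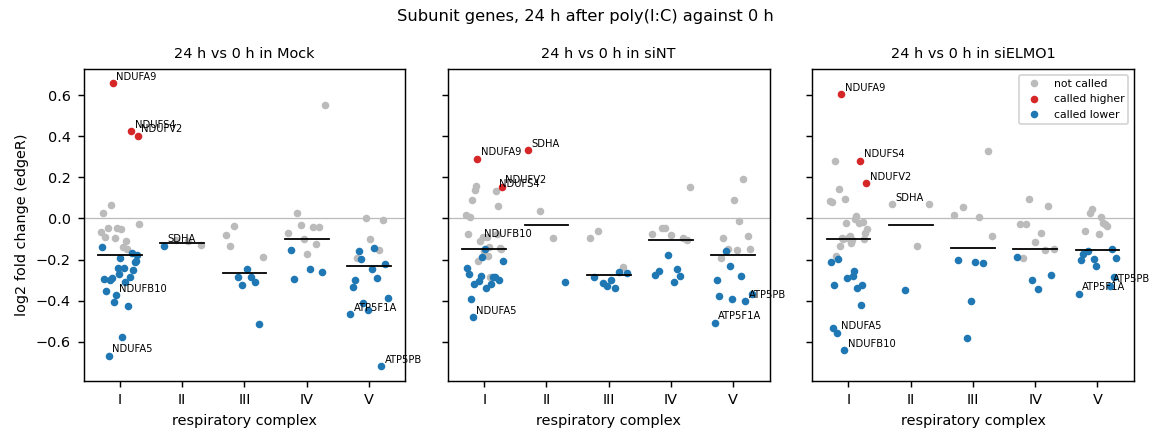
Log2 fold change (y axis, edgeR) from 0 h to 24 h of each tested subunit gene by complex (x axis) in Mock, siNT and siELMO1. Points are genes, red where higher and blue where lower at an adjusted p under 0.05, and bars are medians. Medians lie below 0 in every complex and treatment, NDUFA9 is among the genes above 0 in all 3 panels, and 1 gene that is not reported here is not drawn.

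ATP5PB fell in Mock from 119, 120 and 120 CPM to 68.4, 75.2 and 74.7 CPM (log2 -0.72 ± 0.053, adjusted p = 2.06e-09, edgeR). It fell to 83.4, 83.1 and 73.1 CPM in siNT (log2 -0.40) and to 60.4, 56.9 and 57.2 CPM in siELMO1 (log2 -0.33). In every treatment the 24 h libraries lay below the 0 h libraries. NDUFA5, an accessory subunit of the matrix arm, was at 60.8 to 68.9 CPM over the 9 libraries at 0 h and 37.9 to 47.9 CPM over the 9 at 24 h. Its log2 fold changes were -0.67 in Mock, -0.48 in siNT and -0.56 in siELMO1. ATP5F1A fell by 0.47, 0.51 and 0.37 on the log2 scale, and UQCRB by 0.29, 0.31 and 0.58. NDUFB10 fell by 0.64 in siELMO1 and by 0.37 in Mock, and in siNT its change was -0.11, which did not pass the test.

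A few complex I genes rose. NDUFA9, an accessory subunit at the junction of the matrix and membrane arms, went from 69.4, 82.0 and 73.6 CPM to 115, 116 and 123 CPM in Mock (log2 0.66 ± 0.0643, adjusted p = 9.11e-08, edgeR). In siELMO1 it went from 78.5, 71.2 and 75.3 CPM to 121, 112 and 109 CPM (log2 0.60), and in siNT from 91.4, 92.3 and 85.8 CPM to 109, 104 and 117 CPM (log2 0.29). None of these pairs of groups overlapped. NDUFA9 shares 606 and 1103 exon bases with 2 genes annotated on the same strand. NDUFV2, which holds an iron-sulfur cluster of the NADH-oxidising end, rose by 0.40, 0.15 and 0.17 in Mock, siNT and siELMO1 on the log2 scale, and when scaled by library totals alone the call in siELMO1 was lost (adjusted p = 0.0659, edgeR). NDUFS4, an accessory subunit of the same arm, was 0.42 higher in Mock and 0.28 higher in siELMO1, and its value in siNT, 0.14, did not pass.

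The difference of the responses to poly(I:C) between treatments was itself tested. For siELMO1 against siNT, 8 genes (9.41%) had a higher and 8 a lower response, beside 16.7% and 17.8% of all genes. For siELMO1 against Mock these were 7 (8.24%) and 6 (7.06%), beside 13.8% and 14.6%, and for siNT against Mock 5 (5.88%) and 3 (3.53%), beside 14.9% and 16.0%. All these shares were below those of all genes. Without siELMO1 at 0 h replicate 1, 26 genes had a higher response in siELMO1 than in siNT and 26 than in Mock, beside 3029 and 2609 of 15154 genes in all, so that these counts rest on that library. Against siNT the higher count was 5 without siNT at 0 h replicate 2, siELMO1 at 0 h replicate 2, siNT at 24 h replicate 3 or siELMO1 at 24 h replicate 1, and 4 without siELMO1 at 0 h replicate 3. Against Mock it was 4 without replicate 3 of Mock or siELMO1 at either time, or without siELMO1 at 24 h replicate 1. The lower count against Mock was 1 without Mock at 0 h replicate 2 or 3, and 2 without Mock at 0 h replicate 1, siELMO1 at 0 h replicate 2 or Mock at 24 h replicate 2. It was 3 without siNT or siELMO1 at 0 h replicate 3, Mock at 24 h replicate 3, or siELMO1 at 24 h replicate 1 or 3. For siNT against Mock the counts were 8 and 5 without siELMO1 at 0 h replicate 1. NDUFA2 had a response 0.67 higher in siELMO1 than in siNT on the log2 scale (adjusted p = 0.00454, edgeR) and 0.63 higher than in Mock (adjusted p = 0.00902, edgeR). NDUFB10 differed by -0.53 between siELMO1 and siNT (adjusted p = 0.000673, edgeR). SDHA, which rose in siNT from 122, 134 and 136 CPM to 164, 158 and 171 CPM, differed by 0.46 between siNT and Mock (adjusted p = 0.000103, edgeR). At 24 h SDHA was at 171 to 185 CPM in Mock, and siNT differed from it by -0.12 on the log2 scale, which did not pass the test.

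Over the 6 conditions, 54 of the 82 tested subunit genes had their highest mean in siNT at 0 h. The lowest mean was in siELMO1 at 24 h for 37 and in Mock at 24 h for 24 of them. The same was not counted over all genes tested, so these counts have no general share to be set against. The summed share of the 97 genes in all counts was 0.6375% ± 0.00745 (SD, n = 3) in Mock, 0.7058% ± 0.0162 in siNT and 0.5647% ± 0.0516 in siELMO1 at 0 h. At 24 h it was 0.5099% ± 0.0109, 0.6012% ± 0.0207 and 0.487% ± 0.00994.

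**Figure D5:**
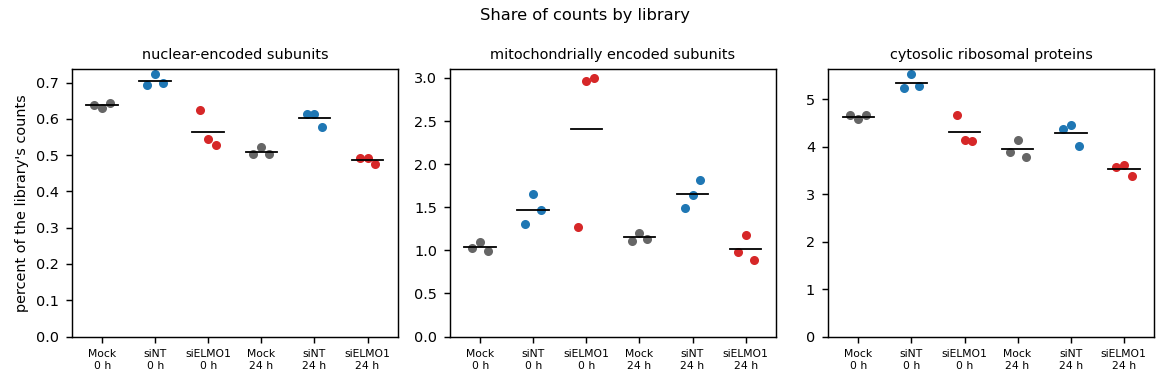
Percent of a library's counts (y axes, from 0) in the nuclear-encoded subunit genes, the subunits encoded by mitochondrial DNA and the cytosolic ribosomal protein genes, 1 point per library and a bar at the mean of 3. In siNT at 0 h the nuclear genes reach 0.6934 to 0.7242%, and siELMO1 at 0 h holds 2 libraries near 3% and 1 at 1.27% for the mitochondrially encoded subunits.

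The 13 mitochondrially encoded subunits, which join the nuclear ones in the same complexes, followed another order. At 0 h, 6 of the 13 genes were higher in siNT than in Mock (median log2 0.54), beside 27.6% of all genes tested. In siELMO1 13 of 13 were higher than in Mock (median 1.37), beside 27.9%, where the nuclear genes had a median of -0.08. Without siELMO1 at 0 h replicate 1 the median was 1.67 against Mock. At 24 h 9 of 13 were lower in siELMO1 than in siNT (median -0.82), beside 26.5% of all genes. From 0 h to 24 h 12 of 13 fell in siELMO1 (median -1.45), beside 26.9% of all genes. None fell in Mock or siNT, beside 29.6% and 25.2%. The share of counts in siELMO1 at 0 h replicate 1, 1.27%, was close to the 0.885 to 1.18% of the siELMO1 libraries at 24 h. The size of the fall therefore rests largely on replicates 2 and 3 at 0 h.

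Genes that build or regulate these complexes were measured from lists chosen with earlier results known. Of 60 assembly factors, siNT at 0 h had 16 higher and 12 lower relative to Mock (26.7% and 20%, beside 27.6% and 24.0% of all genes), and 17 were higher and 24 lower in siELMO1 than in siNT (28.3% and 40%, beside 31.3% and 31.3%). FMC1, an ATP synthase assembly factor, was at 5.05 to 6.02 CPM in Mock, 1.3 to 1.48 CPM in siNT and 4.31 to 4.85 CPM in siELMO1, so that it was lowest in siNT (log2 -1.99 against Mock, adjusted p = 5.43e-09, edgeR). Of 14 citrate cycle genes, 7 (50%) were higher and 4 (28.6%) lower in siNT than in Mock, with isocitrate dehydrogenase IDH2 (log2 -0.93) among the lower. Cytochrome c itself, CYCS, was 0.63 lower in siNT than in Mock on the log2 scale (adjusted p = 1.93e-06, edgeR).

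Of 13 regulators of mitochondrial biogenesis tested, siNT at 0 h had 3 higher (23.1%) and 2 lower (15.4%) relative to Mock, both shares below those of all genes. In siELMO1 against siNT 4 were higher (30.8%) and 5 lower (38.5%), beside 31.3% and 31.3%. PPARGC1B, a coactivator of NRF1 and of estrogen-related receptors, was at 8.92, 9.7 and 7.83 CPM in Mock, 17.9, 16.3 and 16.7 CPM with siNT and 7.39, 9.53 and 8.26 CPM in siELMO1. Every siNT library was above every other, by 0.94 ± 0.111 on the log2 scale against Mock (adjusted p = 1.62e-06, edgeR), and siELMO1 differed from siNT by -1.02 ± 0.113 (adjusted p = 3.8e-07, edgeR). At 24 h it was at 5.76 in each Mock library, 11.9 to 13.1 CPM in siNT and 5.39 to 7.12 CPM in siELMO1. TFAM, which packages and transcribes mitochondrial DNA, was at 108 to 111 CPM in Mock, 148 to 157 CPM in siNT and 81.5 to 89.6 CPM in siELMO1 at 0 h (log2 0.47 in siNT against Mock and -0.85 in siELMO1 against siNT). NRF1 was lower in siELMO1 than in siNT (log2 -0.68). PPARGC1B, TFAM and NRF1, the only regulators named, were lower in siELMO1 than in siNT, as most subunit genes were. They do not stand for the list, in which 4 of 13 were higher in siELMO1 than in siNT and 2 were lower in siNT than in Mock. Whether any of the regulators had a part in the levels of the subunit genes was not tested.

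Both protein-synthesis lists moved in the direction of the subunit genes. Of 81 cytosolic ribosomal protein genes, siNT at 0 h had 65 higher (80.2%) and 5 lower (6.17%) relative to Mock (median log2 0.30), beside 27.6% and 24.0% of all genes. In siELMO1 against siNT 4 were higher (4.94%) and 65 lower (80.2%), beside 31.3% and 31.3% (median -0.32). Of 78 mitochondrial ribosomal protein genes, 31 were higher (39.7%) and 11 lower (14.1%) in siNT than in Mock, and 8 higher (10.3%) and 42 lower (53.8%) in siELMO1 than in siNT. The endothelial markers also moved, at a summed level of 2194 to 2338 CPM in Mock, 2326 to 2416 CPM in siNT and 3087 to 3311 CPM in siELMO1 at 0 h. The summed epithelial markers were at 1516 to 1538 CPM over the Mock libraries, 1879 to 1911 CPM over those of siNT and 2100 to 2224 CPM over those of siELMO1 at 0 h, and at 842 to 861, 1010 to 1056 and 1098 to 1314 CPM at 24 h. The part of these markers in the results was not tested.

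Of the 8 members that are not subunit genes, only NDUFA6-DT, NDUFB2-AS1 and NDUFC2-KCTD14 passed the filter, and none was called in any comparison. NDUFB2-AS1 ranged from 1.07 to 1.51 CPM over the Mock libraries and from 0.279 to 1.11 CPM over those of siNT at 0 h, and NDUFC2-KCTD14 did not exceed 6.14 CPM in any library. Of the members left out by the filter, NDUFV2-AS1 reached 0.783 CPM, and NDUFV1-DT, UQCRB-AS1, UQCRFS1-DT, ATP5MF-PTCD1 and the ATP synthase gene ATP5MGL held 34 to 94 counts each over all 18 libraries. Among all 97 genes, 43 share no exon base with another annotated gene, 30 share some with a gene on the same strand and 38 with one on the opposite strand. The library kit (KAPA Stranded mRNA-Seq) keeps the strand of the RNA, but the strand setting of the counting is not given in the sources used here, so it is not known whether reads of opposite-strand pairs were kept apart.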

How the data were processed

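RNA-seq of EA.hy926 cells was deposited as a matrix of estimated counts per gene, which the authors made by aligning reads to GRCh38 with STAR, quantifying them with StringTie on a Gencode annotation and exporting counts with prepDE; strand use in counting is not given in the sources used here. They are whole numbers as deposited and were used unchanged, and the matching transcript matrix served for levels per length. The filter kept 15167 genes that reached 100 counts over all libraries and 1 CPM in some library, and edgeR 4.0.16 (R 4.3.3) quasi-likelihood tests with TMM factors were fitted to all 18 libraries together, with Benjamini-Hochberg adjustment over all genes tested and a threshold of 0.05. The fit was tested on simulated data. The common biological coefficient of variation was 12.2%. CPM values use TMM-scaled library sizes.

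Genes were named where they were among the 3 strongest called in a direction of a comparison, alternative forms of 1 subunit, complex II subunits, members with set roles (CYC1, ATP5IF1, NDUFAB1), called against the median of their complex, or among the 4 strongest of a pathway list. Some results of named genes are not reported here. Some other core, F1, carrier and core-protein subunits of complexes I, III and V, and the genes of the printed promoters, were named after their values were seen. The members and lists were chosen with earlier results of these data known. Same-numbered libraries deviated together in all 3 pairs for Mock and siNT at 24 h alone (r = 0.154, 0.23 and 0.341 over 9983 genes), a pattern in the data. The reported tests used no pairing, in this comparison as in the others, and a replicate block was fitted only as an alternative. Alternatives included other scaling factors and filters, DESeq2 1.42.0, limma-voom (limma 3.58.1), own groups only, a replicate block and leaving out each library.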

Additional observations from a re-analysis of the deposited data

Results flagged for a closer look

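The response to poly(I:C) differed between treatments, by an interaction term in edgeR, for the named genes that follow. Between siELMO1 and siNT the log2 responses of NDUFA2 (0.67), UQCRHL (0.56) and SDHD (0.38) were higher in siELMO1, and those of NDUFB10 (-0.53), SDHB (-0.39) and NDUFS6 (-0.38) were lower. Between siELMO1 and Mock those of UQCRHL (0.84), NDUFA2 (0.63) and NDUFB6 (0.46) were higher in siELMO1, and those of UQCRB (-0.29) and SDHB (-0.24) were lower. Between siNT and Mock those of SDHA (0.46) and NDUFA8 (0.44) were higher in siNT, and those of NDUFA9 (-0.37), NDUFV2 (-0.25) and ATP5MC2 (-0.23) were lower.

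Several of these calls depend on single libraries and on the processing. Against Mock, the call of UQCRB was lost without any of 11 libraries in turn (adjusted p up to 0.148, edgeR) and under 7 of 9 other settings (up to 0.157). That of SDHB was lost without any of 9 libraries (up to 0.121) and under 6 of 9 settings (up to 0.224), and that of NDUFB6 without any of 8 (up to 0.0972) and under 2 settings (up to 0.0698). The call of ATP5MC2 between siNT and Mock was lost without any of 6 libraries (up to 0.0818) and under 2 settings (up to 0.137), and that of UQCRHL between siELMO1 and siNT without any of 6 libraries (up to 0.0944) and under 1 setting (0.0723). The call of NDUFV2 between siNT and Mock was lost with library totals (0.0807). UQCRHL is a near-identical copy of UQCRH, so its counts are uncertain.

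The mitochondrially encoded subunits had a lower response in siELMO1 for 13 of 13 genes against siNT and for 13 of 13 against Mock. The shares of all genes were 17.8% and 14.6%. The part of siELMO1 at 0 h replicate 1, whose mitochondrially encoded share was 1.27% beside 2.97% and 2.99% in its group, was measured by leaving it out, after which 13 of 13 genes fell in siELMO1 with a median log2 fold change of -1.81. That refit keeps the libraries at 2.97% and 2.99%, so it does not show how far the result rests on them.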

How the results depend on the processing

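Of 327 values over the 85 genes under settings other than leaving out a library, 305 stayed near the reported value. For a median this meant a shift under 0.0663 on the log2 scale, within which a small median could change sign. For a count it meant a ratio to the reported count within a set limit, so a large count could still differ by many genes. With no filter on low counts, 5 genes were higher in siELMO1 than in siNT at 0 h, 3 were higher and 8 lower in siELMO1 than in Mock at 24 h, and the differences of responses gave 5 higher and 5 lower against siNT and 4 and 0 against Mock. With library totals, siELMO1 against Mock at 0 h had 33 lower (median -0.155), 2 genes were higher in siELMO1 than in siNT and 3 than in Mock at 24 h, and the median from 0 h to 24 h in Mock was -0.297, where the median of all genes moved to -0.115. The differences then gave 1 lower for siELMO1 against Mock, and 13 higher and 1 lower (median 0.107) for siNT against Mock, and ATP5MC2 changed from 0.00 to -0.122 in Mock over time (adjusted p = 0.0456, edgeR). With RLE factors, without mitochondrially encoded genes, with filterByExpr or with own groups only, 2 were lower in siELMO1 against Mock responses; own groups only also gave 13 lower for siNT against Mock at 0 h and 10 higher for siNT against Mock responses. The cause was not tested. With the replicate block, siNT against Mock at 24 h had 46 higher and 2 lower (48 and 3 with own groups only, a fit chosen after seeing the data), and the block changed the call of ATP5IF1 there. Leaving out each library gave 15 to 37 lower in siELMO1 than in Mock at 0 h; 2 to 4 higher in siELMO1 than in siNT, and 3 to 9 higher and 8 to 17 lower than in Mock, at 24 h; and 3 to 12 higher over time in siELMO1 (median -0.17 to -0.034). Differences of responses ranged from 4 to 26 higher for siELMO1 against siNT, from 4 to 26 higher and 1 to 8 lower (median 0.016 to 0.13) against Mock, and from 4 to 8 higher and 2 to 5 lower for siNT against Mock. Of 164 calls of named genes, 128 held in every refit. Levels per length were also computed with the length of the leading transcript, which gave 27.8 in place of 154 for UQCRB. Each group held 3 libraries, which limits small changes; 12 members were too low to test.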
